A study of Mus musculus with 4 samples.

Results

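Lyz1 and Lyz2, the mouse genes for lysozyme, are 2 of the 22005 gene symbols counted in 4 droplet single-cell libraries, and they were chosen by name. They were followed across the authors' cell classes of small intestinal and lung singlets and in both libraries of multiplets. Singlets are dissociated single cells, and multiplets are clumps of attached cells that share a droplet, so that 1 barcode can hold the RNA of several cells. All tissue came from mice of the inbred strain C57BL/6J, with no treatment recorded: 1 library of singlets and 1 of multiplets from the small intestinal epithelium, and 1 of each from the lung. Neither the age nor the number of the animals is given in the labels, nor the step that separated singlets from multiplets. With 1 library per group no difference could be compared with a spread between replicates, so no test was run. Intervals are exact at 95% and cover counting error only.

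Lysozyme is a secreted enzyme that cuts the peptidoglycan wall of bacteria. The mouse carries a pair of neighbouring lysozyme genes that arose by duplication. Lyz1 (lysozyme P) is known as the lysozyme of Paneth cells, which release it from granules into the crypts of the small intestine, while Lyz2 (lysozyme M) is known as the lysozyme of macrophages, monocytes and neutrophils and is also made by type II pneumocytes, the surfactant-producing cells of the alveolus.

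Both genes lie on the minus strand of chromosome 10 (GENCODE vM21, GRCm38), Lyz2 (ENSMUSG00000069516.8) at chr10:117277331-117282321 and Lyz1 (ENSMUSG00000069515.6) at chr10:117287797-117292868, with 5475 bases between them and 4 exons each. The stretch upstream of each start is shown because the expression of the genes parted by cell type while their transcripts are nearly the same. The 201 bases from 250 to 50 bases before the RefSeq start (GRCm38.p6, minus strand) are written 5′ to 3′, with capitals for each base that differs between the genes or faces a gap in their alignment. They lie at chr10:117292918-117293118 for Lyz1 and chr10:117282322-117282522 for Lyz2.
Lyz1 promoter: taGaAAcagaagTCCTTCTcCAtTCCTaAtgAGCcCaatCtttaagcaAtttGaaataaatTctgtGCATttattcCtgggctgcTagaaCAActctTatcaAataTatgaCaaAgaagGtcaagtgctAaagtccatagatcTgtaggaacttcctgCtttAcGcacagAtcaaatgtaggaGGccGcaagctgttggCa
Lyz2 promoter: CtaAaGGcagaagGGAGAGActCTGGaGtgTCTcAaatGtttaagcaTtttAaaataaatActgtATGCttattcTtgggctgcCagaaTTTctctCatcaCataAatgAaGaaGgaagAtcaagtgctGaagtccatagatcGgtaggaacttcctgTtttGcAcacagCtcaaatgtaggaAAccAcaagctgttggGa
Of the 203 aligned positions in these stretches, 151 were identical (74.4%). The letters AGGAA, which read TTCCT on the other strand and hold the core that the myeloid factor PU.1 binds, were searched on both strands and occurred 4 times in each stretch. Of 32851 RefSeq promoter windows of the same length and position, 52.9% held them at least once and 1.52% held them 4 times or more. A match to these letters is a description and not a binding site.

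The coding sequences were closer, with 425 of 447 bases identical (95.1%), and the 79 coding bases of exon 3 were the same in both genes. The 60 coding bases with the most differences, 9 of them, lie in exon 1, at chr10:117292719-117292778 for Lyz1 and chr10:117282123-117282182 for Lyz2 (minus strand), and capitals again mark the bases that differ.
Lyz1 exon 1: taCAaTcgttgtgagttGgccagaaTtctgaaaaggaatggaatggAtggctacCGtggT
Lyz2 exon 1: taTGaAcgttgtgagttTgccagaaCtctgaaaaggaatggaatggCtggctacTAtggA
The kit counts unique molecular identifiers (UMIs), 1 per captured transcript end, so reads come mostly from the 3′ end. There the last 500 bases of the 2 transcripts were 95.4% identical. Of the 411 windows of 90 bases in that stretch, 15 (3.65%) occurred whole in the other gene's transcript, so a read of that length would usually hold at least 1 difference. The length of the reads and the way shared reads were counted are not given in the sources used here. A small share of either gene's UMIs in cells rich in the other is therefore uncertain.

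Barcodes held a median of 8759 UMIs in intestinal singlets (5279 barcodes), 12603 in intestinal multiplets (3671), 7896 in lung singlets (6084) and 11934 in lung multiplets (4729). Levels are given as CPM, the UMIs of a gene for each 1000000 UMIs of the class or library. A UMI counts a transcript end, so the 2 genes can be compared without a correction for length (transcripts of 1263 and 1316 bases). Paneth and type II markers were highest in the classes of those names. The 9 Paneth markers other than lysozyme summed to 534021 CPM in the Paneth class and 9195 CPM in goblet cells, the next class. The 8 type II markers, led by surfactant proteins, summed to 266635 CPM in type II pneumocytes and 15546 CPM in endothelial cells, the next class. In the macrophage class, neutrophil (3373 CPM) and monocyte markers (3167 CPM) summed higher than interstitial (914 CPM) and alveolar macrophage markers (388 CPM). Pairs of libraries shared 2 to 15 barcodes.

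In the small intestine, lysozyme RNA was almost all Lyz1 and almost all in Paneth cells. The 88 Paneth singlets held 167377 of 184015 Lyz1 UMIs, a class level of 72511 CPM (72164 to 72859). Every Paneth barcode had at least 10817 CPM, with a median of 63483 and a highest value of 135927, and Lyz1 was found in 100% of them after each barcode had been thinned to 1000 UMIs. Without the 10 richest barcodes the level was 62905 CPM, so the class as a whole, and not a few cells, carried the gene.

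Goblet cells, the mucus-secreting cells, came next at 1278 CPM (1255 to 1301), lower than the Paneth level by 56.7-fold (55.7 to 57.8). Their median barcode had 145 CPM and their highest 72968, and the 10 richest of 985 barcodes held 40.7% of the class's Lyz1 UMIs. The remaining classes lay between 46.3 and 237 CPM. From tuft (237) through enteroendocrine (201) and late-1 progenitor (186) to stem cells (183), no step between neighbours in this order went beyond counting error. Transit amplifying cells (136) stood below stem cells, early progenitors (92.6) and enterocytes (80.3) could not be told apart, and late-2 progenitors (46.3) were lowest. This order rested on few barcodes. Without the 10 richest of each class, stem cells stood highest of these at 142 CPM, before enteroendocrine cells at 109.8, transit amplifying cells at 79.5 and early progenitors at 77.7. Tuft cells then had 59.8 CPM, late-1 progenitors 57.0, enterocytes 36.1 and late-2 progenitors 34.0. Tuft cells had 124 CPM without the barcodes marked by Scrublet, which scores barcodes that resemble 2 added cells.

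**Figure D1:**
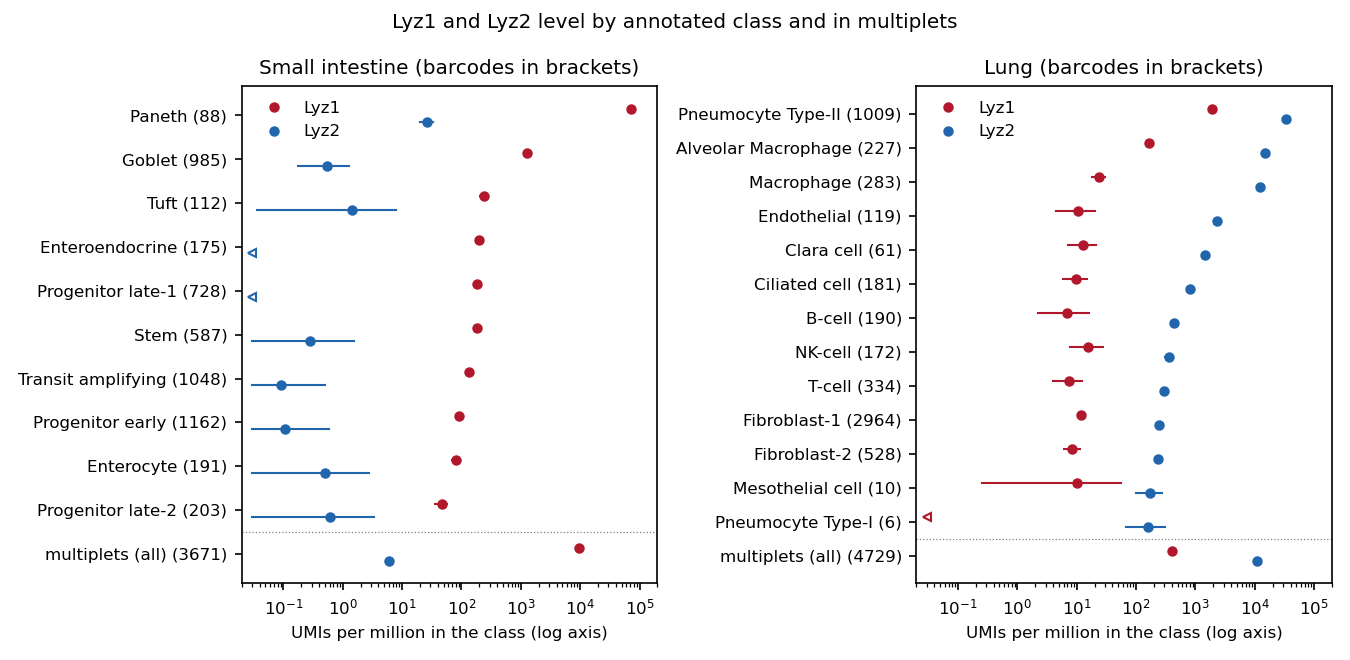
Level of Lyz1 (red) and Lyz2 (blue) in each annotated class of singlets and in all multiplets (bottom), small intestine at left and lung at right, in CPM on a log axis. Lines are exact Poisson intervals of counting error, open triangles mark classes with no UMI, and the number of barcodes is in brackets; Lyz1 led in every intestinal class and Lyz2 in every lung class.

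After thinning to 1000 UMIs, 25.5% (22.8 to 28.3) of goblet barcodes held a Lyz1 UMI, against 5.42% of late-2 progenitors and 14.9% of enteroendocrine cells, the ends of the range of the other 8 classes. Unthinned, the goblet share was 71.0% at a median depth of 8905 UMIs, and the enterocyte share was 33.5% at 11039 UMIs. Enterocytes, which are not known to make lysozyme, had a thinned share of 8.38% (4.86 to 13.2). In droplet libraries RNA from broken cells can enter any droplet. Whether a share near that of enterocytes is such background or expression was not tested.

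Lyz1 was also counted against the 9 other Paneth markers. There were 13.6 Lyz1 UMIs per 100 marker UMIs in Paneth cells (13.5 to 13.6) and 13.9 in goblet cells (13.6 to 14.2). The other classes held 14.95 to 25.2 per 100. Few barcodes set the upper end of this range: without the 10 richest of each class, tuft cells fell from 25.2 to 15.7 and enteroendocrine cells from 24.5 to 13.5. Paneth cells then had 11.9, goblet cells 10.5 and late-2 progenitors 11.6 per 100. Where the Lyz1 UMIs outside the Paneth class came from was not tested.

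The goblet class was described on either side of 1000 CPM of Lyz1, a limit chosen after the values were seen. The 143 barcodes at or above it held 87.4% of the class's Lyz1 UMIs, at 8491 CPM against 185 CPM in the other 842. The values ran on across the limit, with 127 barcodes between 500 and 2000 CPM. Paneth markers summed to 41488 CPM above and 4303 CPM below, while goblet markers summed to 135128 and 129816 CPM. Of 8207 genes counted, 2.85% were higher and 9.88% lower beyond 1.5-fold above the limit. Among those with the highest ratios were the alpha-defensins Defa24 (27784 against 2598 CPM) and Defa17 (399 against 27.9 CPM). Median depths were 8111 and 9001 UMIs, and Scrublet marked 3 and 38 barcodes. Whether the goblet barcodes rich in Lyz1 hold RNA of a Paneth cell as well was not tested.

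Lyz2 was rare in the intestine. Of its 71 UMIs among singlets, 60 lay in Paneth cells (26.0 CPM, 19.8 to 33.5) and 5 in goblet cells, and no other class held more than 1. In Paneth cells Lyz2 made up 0.0358% (0.0273 to 0.0461) of lysozyme UMIs, and in goblet cells 0.0426% (0.0138 to 0.0993). Among all singlets with at least 1000 CPM of Lyz1 there were 3.56 Lyz2 UMIs per 10000 Lyz1 UMIs (2.74 to 4.55), and among multiplets with as much Lyz1 there were 3.44 (2.93 to 4.01). In Lyz1-rich barcodes the proportion was thus the same in both libraries within counting error. Under 1000 CPM of Lyz1 it was higher, at 16.3 (6.55 to 33.6) in singlets, from 7 Lyz2 UMIs, and 269 (227 to 317) in multiplets, or 11.1 (4.06 to 24.1) without the 2 barcodes richest in Lyz2. Whether these UMIs are Lyz2 transcripts or misread Lyz1 transcripts was not tested.

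Intestinal multiplets held more lysozyme RNA than singlets. Lyz1 stood at 3853 CPM in singlets and 9522 CPM in multiplets, a ratio of 2.47 (2.46 to 2.48). Lyz2 stood at 1.49 CPM (71 UMIs) and 6.12 CPM (310 UMIs), a ratio of 4.12 (3.17 to 5.41). Both passed the limit of 1.5-fold used here, which 1.42% of the 11674 genes with at least 50 UMIs passed upward and 3.87% downward. The 2 libraries need not hold Paneth cells in the same share, and fewer cells of a type and less RNA per cell cannot be told apart in these sums.

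For Lyz1 the increase lay in multiplets with a Paneth cell. Each multiplet was fitted as a mixture of singlet class profiles on genes that left out both lysozymes, and a class was called when it gave at least 0.15 of the RNA. The 272 multiplets with a Paneth call held 96.7% of Lyz1 UMIs at 75886 CPM (75669 to 76104), and the 3399 others stood at 356 CPM (350 to 361). All but 1 of the 272 had at least 1000 CPM. Multiplets called as Paneth alone (157 barcodes) reached 85542 CPM, those of Paneth and stem cells (51) 61074 CPM and those of Paneth and transit amplifying cells (24) 57644 CPM. The level predicted from the fitted weights was lower in the pairs too, at 69825, 51382 and 45675 CPM in the same order.

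Observed Lyz1 was above that prediction in all 3 of these sets, by 1.23, 1.19 and 1.26 times. Over all intestinal multiplets it was 1.20 times the prediction (1.20 to 1.21), against 1.01 in singlets fitted with profiles from the other part of the singlets. The predicted level takes the singlet Paneth profile as given, and 88 Paneth singlets make up that profile. Multiplets called as goblet alone went the other way, with 469 CPM of Lyz1 against 1327 predicted.

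Among intestinal classes called alone, stem cells had the largest ratio of Lyz1 in multiplets to Lyz1 in singlets of the class. Stem cells sit between Paneth cells at the crypt base. The 148 such multiplets had 2010 CPM of Lyz1, against 183 CPM in the 587 stem singlets, a ratio of 11.0 (10.1 to 12.0), or 7.30 without the 10 richest barcodes of each. At least 1000 CPM was reached by 36 of 148 multiplets (24.3%, 17.7 to 32.1) and 13 of 587 singlets (2.21%, 1.18 to 3.76). Median depths were 6334 and 6199 UMIs. Lyz1 predicted from the fitted weights, Paneth weights under the limit of 0.15 included, was 1316 CPM. For the other classes called alone in at least 20 multiplets, the ratio to singlets ran from 0.367 in goblet cells to 3.21 in late-2 progenitors. Multiplets called as stem and transit amplifying cells had 1013 CPM. These sets were singled out after their values were seen.

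**Figure D2:**
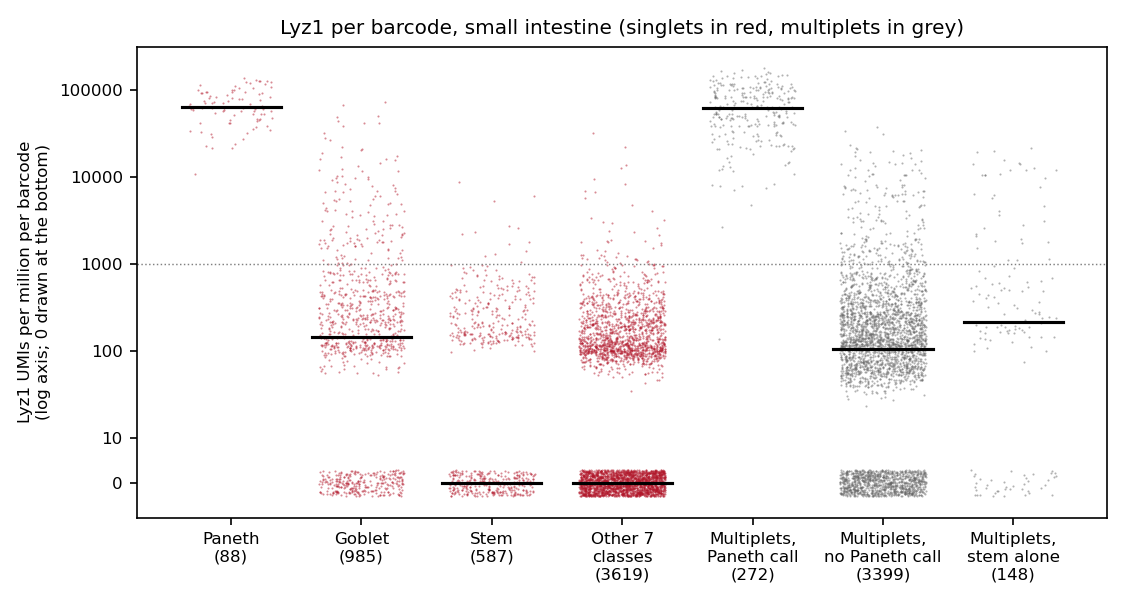
Lyz1 CPM in each barcode (points, log axis, barcodes without a UMI at the bottom) of intestinal singlets (red) and multiplets (grey), with the median as a bar and the number of barcodes in brackets; the set called stem alone is part of the set with no Paneth call. The dotted line is 1000 CPM, which all 88 Paneth singlets, 143 of 985 goblet singlets and 36 of 148 multiplets called as stem alone reached.

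For Lyz2 the increase in intestinal multiplets rested in part on few barcodes. A pair of them held 140 of the 310 UMIs (45.2%), with 103 and 37 Lyz2 UMIs beside 0 and 1 Lyz1 UMIs. They carried 44 and 33 UMIs of the myeloid marker list, with 8 of its 10 measured members detected in each, and 2 and 0 UMIs of the Paneth markers. The 8 next richest barcodes, with 3 to 6 Lyz2 UMIs, had 3383 to 6708 Lyz1 UMIs and at most 2 myeloid UMIs. The 10 barcodes richest in Lyz2 were thus of 2 kinds, 1 with myeloid markers and 1 with Paneth markers and much Lyz1. Without the pair the ratio of multiplets to singlets was 2.26 (1.70 to 3.02), which holds the Lyz1 ratio of 2.47 within its interval. Leaving them out was chosen after their values were seen.

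In the lung the proportions were reversed, and Lyz2 was above Lyz1 in each of the 13 classes. Type II pneumocytes had the highest Lyz2 level, 33917 CPM (33827 to 34006), and held 549585 of 644516 UMIs. Their middle barcodes, from the first to the last quartile, ran from 23441 to 42175 CPM around a median of 33250. Alveolar macrophages, the phagocytes of the airspace, followed at 14590 CPM (14462 to 14719), and the macrophage class stood at 12397 CPM (12262 to 12532). Counting error separates these levels, but the middle barcodes of the 2 phagocyte classes overlapped, at 10085 to 18156 and 1155 to 23609 CPM. After thinning, Lyz2 was found in 99.4% of type II pneumocytes, 99.1% of alveolar macrophages and 82.7% of the macrophage class, and unthinned in 100%, 100% and 97.5%.

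Every other lung class had Lyz2 as well, at lower levels: endothelial cells 2278 CPM, Clara cells 1463, ciliated cells 803, B cells 444, NK cells 356, T cells 294, and the 2 fibroblast classes 241 and 230, which could not be told apart. Mesothelial cells (171, 10 barcodes) and type I pneumocytes (158, 6 barcodes) were not distinct from their neighbours in the order. Among endothelial, Clara and ciliated cells the level came from few barcodes, since without the 10 richest it was 258, 210 and 188 CPM. The thinned share with a Lyz2 UMI was 14.8% in Fibroblast-2 and 37.0% in endothelial cells, at median depths of 9781 and 5205 UMIs, and unthinned shares were 81.1% and 79.8%. Fibroblasts and T cells (26.3% thinned, 77.2% unthinned) are not known to make lysozyme. Whether shares near theirs are background RNA or expression was not tested.

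Measured against the type II markers, Lyz2 had 12.7 UMIs per 100 marker UMIs in type II pneumocytes. In the 10 classes other than type II pneumocytes and the 2 phagocyte classes, the value ran from 12.6 in Clara cells to 22.8 in ciliated cells. In alveolar macrophages it was 220 and in the macrophage class 454, or 416 and 635 without the 10 richest barcodes. Without their 10 richest barcodes, ciliated cells had 14.5 and Clara cells 4.404, so both values rested on few barcodes. The 2 phagocyte classes thus held far more Lyz2 per type II marker UMI than any other class.

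Lyz1 in the lung lay almost all in type II pneumocytes. They had 1918 CPM (1896 to 1939) and 31075 of 32087 UMIs. Alveolar macrophages had 168 CPM, but 10 barcodes held 93.0% of it, and without them the level was 12.5 CPM. The 2 richest of these, with 411 and 106 Lyz1 UMIs, also had 4824 and 3437 UMIs of Sftpc, the gene of surfactant protein C, against class medians of 12 in alveolar macrophages and 3576 in type II pneumocytes. Scrublet marked neither. The macrophage class had 23.6 CPM, and the other classes had at most 15.7 CPM and did not differ from their neighbours beyond counting error.

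The share of Lyz1 among lysozyme UMIs differed between type II pneumocytes and phagocytes. It was 5.35% (5.29 to 5.41) in type II pneumocytes and 0.190% (0.146 to 0.244) in the macrophage class. In alveolar macrophages it was 1.14%, or 0.128% without their 10 richest barcodes. Fibroblast-1, with 2964 barcodes, had 4.72% (4.17 to 5.31). The intervals of NK cells (4.23%, 2.13 to 7.44) and Fibroblast-2 (3.54%, 2.60 to 4.69) overlapped that of Fibroblast-1. Mesothelial cells and type I pneumocytes had only 18 and 8 lysozyme UMIs. Other classes had less: T cells 2.45%, B cells 1.52%, ciliated cells 1.18%, Clara cells 0.870% and endothelial cells 0.460% (0.199 to 0.904). Without the 10 richest barcodes the last 3 had 3.91%, 4.23% and 4.07%, while T and B cells had 2.69% and 2.26%.

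Within type II pneumocytes Lyz1 was not spread evenly. At a limit of 1000 CPM, chosen after the values were seen, 115 of 1009 barcodes (11.4%, 9.50 to 13.5) held 98.4% of the class's Lyz1 UMIs. In the 115, Lyz1 ran from 1441 CPM through a median of 14620 to 59491 CPM. Of the other 894 barcodes, 595 had no Lyz1 UMI, and their class level was 35.3 CPM. Only 12 barcodes lay between 500 and 2000 CPM, so the position of the limit matters little. Median depths were 15688 and 16046 UMIs, and Scrublet marked 2 and 16 barcodes.

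The Lyz1-high type II pneumocytes had less Lyz2. Its level was 23224 CPM (23005 to 23444) in the 115 and 35304 CPM (35207 to 35402) in the 894, with middle barcodes at 16093 to 28246 and 25452 to 43234 CPM that overlapped in part. The sum of both genes was 39648 and 35340 CPM. In 41 of the 115 barcodes (35.7%) Lyz1 exceeded Lyz2.

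Type II markers were level between these cells and the rest of the class. The 8 markers summed to 265401 CPM in the 115 and 266795 CPM in the 894. Club cell markers stood at 727 and 1286 CPM, but the barcode medians were in the other order, at 569 and 488 CPM. Markers of alveolar macrophages stood at 25.3 and 24.1 CPM, and those of monocytes at 59.6 and 45.5 CPM, so that these myeloid lists were low on both sides. Of 9455 genes with at least 50 UMIs, 2.28% were higher and 6.58% lower beyond 1.5-fold in the Lyz1-high cells. The highest ratio was that of Retnla, at 135 against 10.04 CPM, but 1 barcode held 88.1% of its UMIs in the Lyz1-high cells. Among multiplets with a type II call, Retnla was lower in the Lyz1-high barcodes, at 7.18 against 19.8 CPM. Retnla was named after its value was seen.

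**Figure D3:**
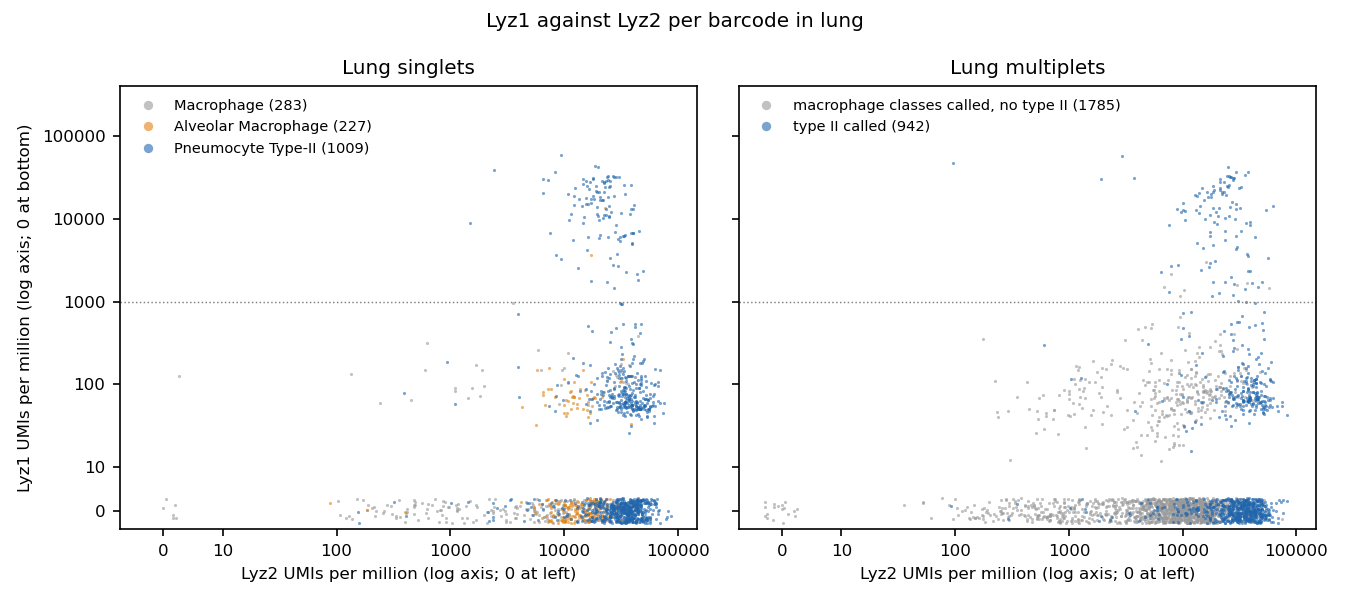
Lyz1 against Lyz2 in each lung barcode, in CPM on log axes (no UMI drawn at the edge), for type II pneumocytes and both macrophage classes among singlets at left, and for multiplets with a call of those classes at right. The dotted line is 1000 CPM of Lyz1, above which lay 115 of 1009 type II singlets and 109 of 942 multiplets with a type II call.

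The same limit, chosen on singlets, was applied to the lung multiplets. Of 942 multiplets with a type II call, 109 (11.6%, 9.60 to 13.8) had at least 1000 CPM of Lyz1. Of the 3787 without such a call, 9 did (0.238%, 0.109 to 0.451). The 109 had 13658 CPM of Lyz1 and 23465 CPM of Lyz2 (23242 to 23689), and the other 833 had 35.6 CPM of Lyz1 and 33606 CPM of Lyz2 (33505 to 33707). Lyz1 exceeded Lyz2 in 37 of the 109. Both the share of Lyz1-high barcodes and their lower Lyz2 level were thus near those of the singlets. The median fitted type II weight was 99.5% in the 109 and 99.3% in the 833, so the fit gave the median barcode little RNA of other classes. This weight is a share of RNA, and a clump made only of type II cells would also have a weight that high. How many cells these barcodes held was not tested.

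Over the whole lung libraries, Lyz2 was near the same level in multiplets and singlets and Lyz1 was lower in multiplets. Lyz2 stood at 11379 CPM in singlets and 11088 CPM in multiplets (ratio 0.974, 0.971 to 0.978), and Lyz1 at 567 and 396 CPM (ratio 0.699, 0.688 to 0.711). Neither passed the limit of 1.5-fold, which 15.9% of 15098 genes passed upward and 13.8% downward. With each barcode weighted equally the ratios were 1.52 for Lyz2 and 1.09 for Lyz1, so neither direction holds under both weightings, and Lyz2 then passed the limit as higher. With only singlets as deep as the shallowest multiplet, Lyz1 passed it as lower, at 0.637. Multiplets with a type II call held 95.9% of Lyz1 UMIs and 64.1% of Lyz2 UMIs.

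By called class, Lyz2 in multiplets followed the singlets where the type II pneumocyte or the alveolar macrophage was called alone. The 832 multiplets of type II alone had 34572 CPM, 1.02 times the singlet level (1.02 to 1.02), and the 611 of alveolar macrophage alone had 13682 CPM, 0.938 times (0.928 to 0.948). The 578 of macrophage alone had 8895 CPM, 0.718 times (0.708 to 0.727). Pairs lay lower: 22776 CPM for endothelial and type II cells (38 barcodes), 8120 CPM for alveolar macrophage and T cell (51), 7931 CPM for alveolar macrophage and macrophage (145) and 3301 CPM for macrophage and T cell (97). The prediction for the last 2 pairs was 12665 and 7963 CPM, so the observed level was 0.626 and 0.415 times the predicted one.

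Endothelial and Clara singlets both owed most of their Lyz2 to few barcodes, as did the Clara multiplets but not the endothelial ones. The 354 multiplets called as endothelial alone had 170 CPM of Lyz2, against 2278 CPM in 119 endothelial singlets and 258 CPM in those without their 10 richest barcodes. The 77 multiplets called as Clara cell alone had 1367 CPM, 0.934 times the singlet level (0.884 to 0.989). Without the 10 richest barcodes of each set, Clara multiplets had 209 CPM, Clara singlets 210 CPM and endothelial multiplets 148 CPM. For Lyz1, 611 multiplets of alveolar macrophage alone had 11.3 CPM, near the 12.5 CPM of alveolar macrophage singlets without their 10 richest barcodes. Over all lung multiplets, Lyz2 was 0.912 and Lyz1 0.930 times the prediction, against 1.01 for both in held-out singlets.

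**Figure D4:**
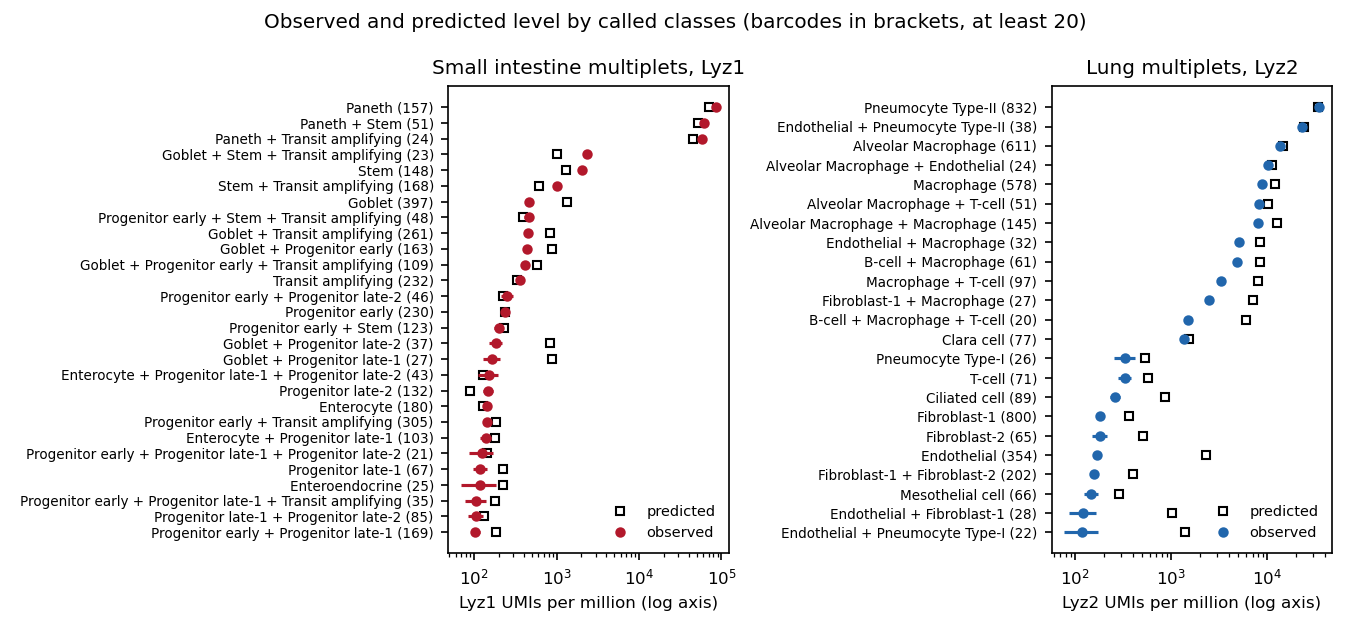
Observed level (filled circles, with exact Poisson intervals of counting error) and level predicted from the fitted class weights (open squares) of Lyz1 in intestinal and Lyz2 in lung multiplets, by the set of classes called, in CPM on a log axis. Sets with a Paneth call lay above their prediction, and sets with a macrophage and a lymphocyte or fibroblast call lay below it.

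The macrophage class was broad in Lyz2, and its barcodes were described on either side of 10000 CPM, a limit chosen after the values were seen and within 2-fold of which 87 of 283 barcodes lay. The 115 barcodes above it had 25616 CPM of Lyz2 and the 168 below it 2721 CPM. Monocyte markers summed to 5619 CPM above and 1373 CPM below. Neutrophil markers summed to 581 and 5417 CPM and dendritic cell markers to 75.8 and 658 CPM, each with a barcode median of 0 on both sides, so few barcodes carried them. The highest ratio was that of F13a1, the A subunit of coagulation factor XIII and a monocyte marker, at 617 against 17.2 CPM. Xcr1, a chemokine receptor of cross-presenting dendritic cells, had no UMI above the limit and 50.8 CPM below it. Of 4430 genes counted, 10% were higher and 18.1% lower beyond 1.5-fold above the limit. Interstitial macrophage markers (1439 against 529 CPM), alveolar macrophage markers (520 against 291 CPM) and type II markers (3920 against 1861 CPM) were also higher on the Lyz2-rich side, and fibroblast markers were lower (176 against 892 CPM). The part of these other transcripts in the Lyz2 level was not tested. F13a1 and Xcr1 were named after their values were seen.

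The genes whose levels across classes were most like those of the lysozymes were found by Pearson's r of log2(CPM + 10), among genes with at least 500 UMIs. Across the 10 intestinal classes, Lyz1 was most like Defa24 (r 0.99), an alpha-defensin at 308200 CPM in Paneth cells. Clps, Itln1, AY761184, Ang4 and Defa17 followed, with r down to 0.97. Colipase (Clps) helps pancreatic lipase, intelectin (Itln1) binds microbial glycans, Ang4 is an antimicrobial ribonuclease and Defa17 is an alpha-defensin. All 6 were highest in Paneth cells and next in goblet cells. The Paneth class, with its very high values, weighs heavily in these correlations.

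Across the 11 lung classes of at least 50 barcodes, Lyz1 was most like Cst8 (r 0.93), Mob1b, Cftr, Bex4, Dram1 and Spink5 (r 0.91), all highest in type II pneumocytes. Cftr, the chloride channel mutated in cystic fibrosis, stood at 39.7 CPM there. Lyz2 was most like Fabp5 (r 0.96), a fatty acid binding protein at 1437 CPM in type II pneumocytes, 702 in alveolar macrophages and 180 in the macrophage class. Cebpa, a transcription factor of myeloid and type II cells, came next (r 0.92) at 201, 185 and 58.3 CPM, before Soat1, Hmox1, E2f2 and Mob3b (r 0.87). Lyz1 and Lyz2 themselves had r 0.79 in the lung. By Spearman's correlation 2 of the 6 intestinal genes stayed among the 6 most alike, and 0 and 1 of the lung genes of Lyz1 and Lyz2, so all 3 lists depend on the measure. In the intestine Lyz2 had under 500 UMIs and was not compared.

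The relatives of the lysozymes were almost silent. Of 8 other genes of the lysozyme and lactalbumin family, none reached 50 UMIs in either tissue, and Lyzl4 had 11 and 29 UMIs in intestinal singlets and multiplets. Other antimicrobial genes of the intestinal epithelium were more often higher than lower: of 17 counted of a list of 18, 10 were higher and 1 lower in multiplets beyond 1.5-fold, with a median ratio of 1.54. Over all intestinal genes 1.42% were higher and 3.87% lower, and the median log2 ratio was -0.10. The members with the most UMIs were the alpha-defensins Defa24 (ratio 1.96), Defa30 (1.41) and Defa22 (6.10) and the lectin Itln1 (2.18). The list holds all 9 of the Paneth markers used above, and all of these but Defa30 passed the limit upward. Defa24, Itln1, Ang4 and Defa17 among them were highest in Paneth singlets. Outside these markers only Reg3b and Reg3g passed upward, narrowly, at 1.51 and 1.54. Retnlb was lower (0.227), and the rest, such as Reg3a (1.25), Pglyrp1 (1.26) and Pigr (1.04), did not pass. The genes from Reg3b to Pigr were named after their values were seen. Whether the list was higher apart from Paneth RNA was not tested. Defensin genes are near copies of each other, so how reads were split among them is uncertain.

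Genes of phagocyte lysosomes and killing were counted in both tissues. In the intestine 15 of 20 were counted and 0 passed the limit in either direction (median ratio 0.934), where 1.42% of all genes were higher and 3.87% lower, so this count does not set the list apart. In the lung all 20 were counted, 12 were higher and 1 lower in multiplets (median ratio 1.74). Over all lung genes 15.9% were higher and 13.8% lower, and the median log2 ratio was -0.05. The proteases cathepsin S (Ctss) and cathepsin D (Ctsd) were higher, by 3.05 and 1.83 times, as was the NADPH oxidase subunit Cyba, by 1.64 times, and Lamp1, a membrane protein of lysosomes, had a ratio of 0.934. Of 8 myeloid transcription factors 7 were counted in the lung, 4 higher and 1 lower against the same 15.9% and 13.8%, with Spi1 (PU.1) at a ratio of 3.40, Irf8 at 1.53, Cebpb at 1.16 and Maf at 0.620. The ratio of Lyz2 itself, 0.974, lay below the medians of both lists. The surfactant collectins Sftpa1 and Sftpd had ratios of 0.724 and 0.749.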

How the data were processed

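Per the labels' protocols, tissue was dissociated mechanically and enzymatically, and the 10x Chromium 3′ v3 chemistry was used. Reads were processed with Cell Ranger 4.0.0 on mm10, per the submitters' processing notes. The authors deposited UMI counts for each gene and barcode, which were whole numbers and not normalized, and an annotation table with a quality flag and, for singlets, a cell class. The method behind the classes was not given in the sources used here. The members, marker lists and gene lists were chosen with earlier results of these data known.

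Library totals were 47764845 (intestinal singlets), 50645279 (intestinal multiplets), 56639425 (lung singlets) and 66277622 UMIs (lung multiplets). Of 6710, 5607, 8410 and 8630 listed barcodes, 5279, 3671, 6084 and 4729 were counted; no further filter was set. Counts were summed over barcodes and divided by the UMI total. Ratios used no pseudocount, except that in the gene lists a singlet count of 0 was set to 3 UMIs. This touched a granulocyte gene in the lung. A gene was called by size alone, beyond 1.5-fold, among genes that reached 50 UMIs in 1 or both libraries. Intervals are exact Poisson for sums, binomial (Clopper-Pearson) for shares and conditional binomial for ratios. Barcodes were thinned to 1000 UMIs without replacement; none was shallower. Multiplets were fitted by expectation maximization (300 iterations) as Poisson mixtures of class profiles on the 40 genes per class whose level most exceeded that of the next class (10 CPM added), without Lyz1 and Lyz2. The mixture, ratios and thinning were tested on simulated data.

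Genes named are Lyz1 and Lyz2, the 6 genes most like each over classes of at least 50 barcodes, up to 4 members with the most UMIs of each list, and genes said to be chosen after their values were seen. Gm-numbered, Rik and mitochondrial genes were left out. Scrublet in scanpy 1.11.5 marked 82 of 5279 intestinal and 123 of 6084 lung singlets; they were kept, and left out as an alternative. TMM scaling used edgeR 4.0.16. Other steps used Python 3.11.15 with numpy 2.4.6 and scipy 1.17.1. Promoters came from RefSeq and gene models and transcripts from GENCODE.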

Additional observations from a re-analysis of the deposited data

Results flagged for a closer look

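Multiplet to singlet ratios differed between the 2 tissues: both genes passed 1.5-fold upward in the intestine, and neither passed it in the lung libraries. For Lyz1 the intestinal ratio was 2.47 and the lung ratio 0.699. For Lyz2 the intestinal ratio was 4.12 and the lung ratio 0.974. With 1 library per group these differences were not tested. The lung directions depend on the weighting: with each barcode weighted equally they were 1.09 for Lyz1 and 1.52 for Lyz2, and with TMM scaling the Lyz2 ratio was 1.01.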

How the results depend on the processing

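No alternative reversed a called result, but lung Lyz1 passed the 1.5-fold limit as lower with deep singlets (0.637) and lung Lyz2 passed it as higher with equal weights (1.52). Of 63 alternatives for the main values, 28 were taken as unchanged and 35 as moved, 11 of them by over 1.5 times. Values with an interval were unchanged if they stayed within counting error. Counts of genes have no interval, and those taken as unchanged lay within 1.5 times of the main count. With TMM scaling, which shifted the median log2 ratio of intestinal genes by 0.10, the ratio of Lyz1 was 2.66 in the intestine and 0.725 in the lung, and that of Lyz2 in the lung 1.01; 260 intestinal genes were then higher and 333 lower, against 166 and 452. With at least 1 UMI in each library 613 intestinal genes were higher, 1328 intestinal and 3326 lung genes lower (2077 lung genes with 50 UMIs), and with at least 200 UMIs 90 intestinal genes were higher and 164 lower. With barcodes weighted equally the intestinal ratios were 3.61 (Lyz1) and 22.2 (Lyz2) and the lung ratios 1.09 and 1.52. Without the 10 richest barcodes of each library the intestinal ratios were 2.95 and 2.93, and without the pair richest in Lyz2, an alternative chosen after seeing the data, the Lyz2 ratio was 2.26. With only singlets as deep as the shallowest multiplet the lung ratios were 0.637 (Lyz1) and 0.890 (Lyz2). Without Scrublet-marked singlets the ratio was 2.41 for Lyz1 in the intestine and 0.964 for Lyz2 in the lung. Class levels in CPM, with equal weights, without the 10 richest barcodes and without Scrublet-marked singlets, were 1306, 766 and 1354 for Lyz1 in goblet cells and 33039, 33507 and 34204 for Lyz2 in type II pneumocytes. With equal weights and without the 10 richest, Lyz1 in Paneth cells was 69327 and 62905. Without the 10 richest, Lyz1 in type II pneumocytes was 1502, and without the 10 richest and without Scrublet-marked singlets, Lyz2 was 13635 and 15085 in alveolar macrophages and 11441 and 12648.5 in the macrophage class. Observed over predicted Lyz2 in the lung was 0.918 with 20 genes per class and 0.905 with profiles without Scrublet-marked singlets. The cause of these moves was not tested. With 1 library per group the spread between animals, dissociations and runs is unknown, the share of a cell type and its RNA content cannot be told apart in library sums, and Lyz2 in the intestine rests on 71 and 310 UMIs. No paired analysis was possible because each group has 1 library.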

Other observations

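Lists of other secreted defence genes were also counted in the lung libraries, and most of their members were higher in multiplets. Of 8 genes of surfactant and airway host defence, 5 were higher beyond 1.5-fold and 0 lower, with a median ratio of 3.32. Scgb1a1, the club cell secretoglobin, had a ratio of 2.73 and Bpifa1, an airway antibacterial protein, 6.81. The surfactant collectins of this list, Sftpa1 and Sftpd, were below 1, at 0.724 and 0.749. Of 10 granulocyte antimicrobial genes 8 were counted, of which 6 were higher and 1 lower, with a median ratio of 10.4. Chil3 had a ratio of 2.98, S100a9 of 10.6, S100a8 of 10.1 and Lcn2 of 0.874. Over all 15098 lung genes counted, 15.9% were higher and 13.8% lower.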
